A study of Mus musculus with 23 samples.

Results

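Axon guidance genes were examined in 2 murine glioma lines, GL261 and CT2A, as the 43 members of the netrin, Slit, semaphorin and plexin families listed here, of 35576 genes quantified. The members were chosen by family name with earlier results from the same read counts per gene in the 6 groups of libraries in view. Their line differences are therefore given as a description, and the share of all genes called is given beside the count of each comparison. Netrins and Slits are secreted cues, class 3 semaphorins are secreted as well, and semaphorins of the other classes named here are held in the membrane. Netrins act through DCC, neogenin and the UNC5 receptors, Slits through the Robo receptors, and semaphorins through plexins, which class 3 members reach mostly with neuropilins as coreceptors. Outside the nervous system the same families shape vessel growth, immune cell traffic and the motility of tumor cells.

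The data are RNA-seq libraries of tumors taken from mouse brain. Both lines come from carcinogen-induced (methylcholanthrene) gliomas and carry luciferase, and all tumors grew in the right striatum of female albino C57BL/6 mice aged 7 to 10 weeks at implantation. Bulk tumors were grown from 100000 GL261-luc2 cells (4 libraries) or 25000 CT2A-luc cells (4 libraries) and were taken whole on days 22 to 24, so they hold host cells of the brain, vessels and immune system. Sorted cells came from tumors of sublines of GL261 (4 libraries) and CT2A (3 libraries) that also carry a reporter for sorting, each grown from 200000 adherent-cultured cells and enriched on magnetic beads. Neurosphere-derived tumors came from the same sublines cultured as neurospheres before implantation and were sorted the same way (3 GL261 and 5 CT2A libraries). Titles of the 5 CT2A neurosphere libraries name GL261, whereas their description and cell line labels name CT2A, and they were grouped by the latter. Each line is a single established line, so replicate libraries, which the study gives as separate mice, do not replicate the line.

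Library depth ran from 34622622 to 42608400 estimated reads in GL261 bulk tumors and from 7395846 to 15263587 in the other groups. The summed level of 9 neuronal markers was 88.9 to 1843 TPM (a level scaled for transcript length and for library depth) in GL261 bulk tumors, 285.1 to 1629 TPM in CT2A bulk tumors and 7.16 to 32.7 TPM or 20.5 to 37.8 TPM in GL261 and CT2A sorted cells. GL261 bulk libraries 405 and 412 stood at the lowest and highest neuronal sums of their group, and 27 of the 43 members had their lowest and highest GL261 bulk level in these same libraries. GL261 sorted library 81 had the lowest sum of its group for all 6 marker lists and the lowest level of 31 members, and CT2A sorted library 69 had the lowest level of 27 members. CT2A neurosphere-derived library 59 had the highest macrophage marker sum of its group (3271 TPM) and the lowest level of 22 members. These counts were not made over all genes, so they may not be particular to the members. The sort left 13 macrophage markers at 308 to 1621 TPM in GL261 and 1016 to 1947 TPM in CT2A, against 6614 to 9692 TPM in neurosphere-derived GL261 and 743.2 to 3271 TPM in neurosphere-derived CT2A. In bulk tumors they summed to 1233 to 1771 TPM in GL261 and 1194 to 1942 TPM in CT2A, and no marker of the 6 lists was at 0 in every library of any group.

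**Figure D1:**
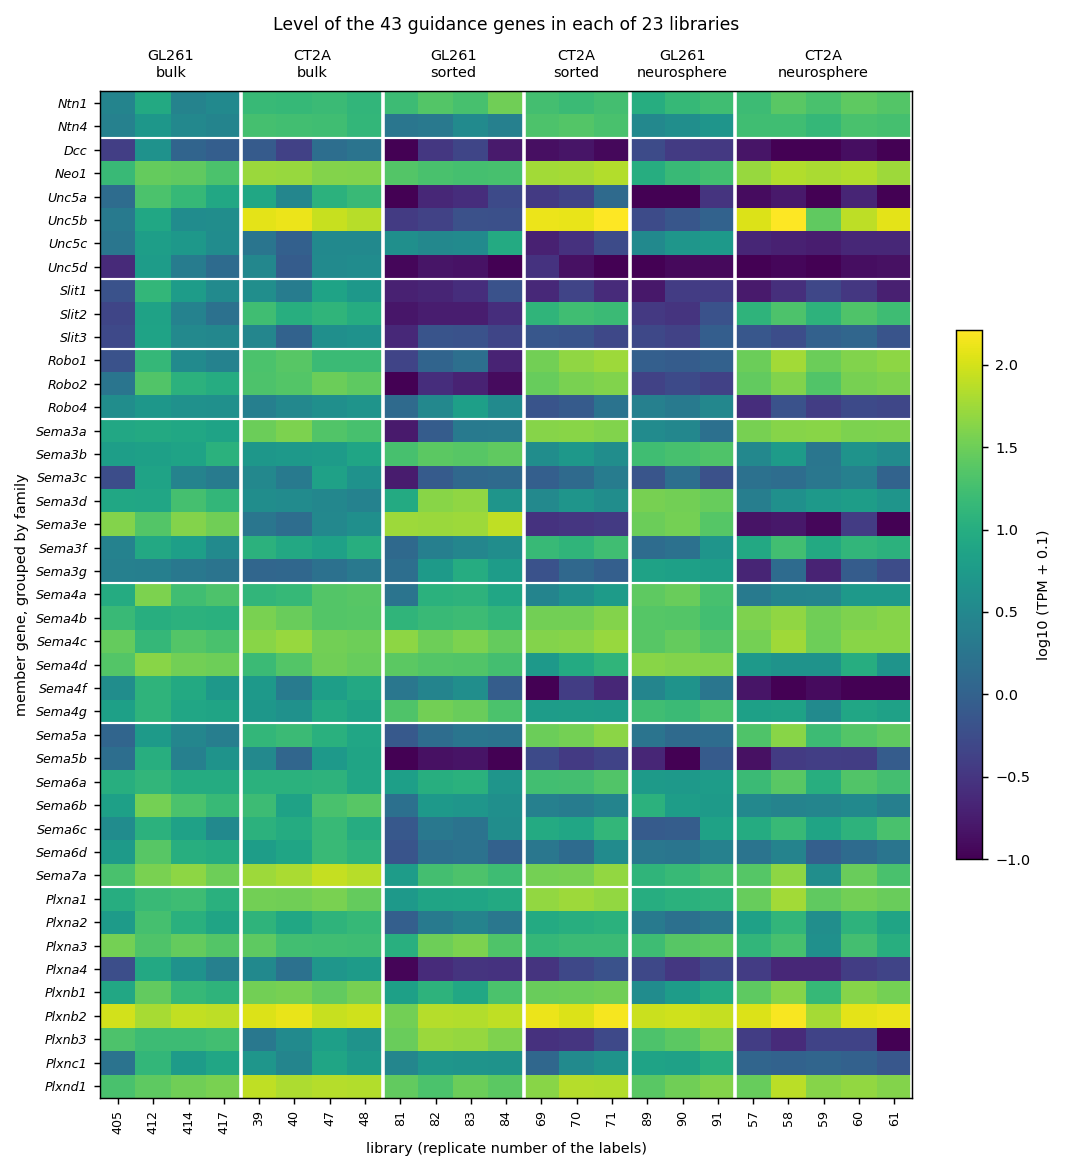
Heat map of the 43 members (rows, grouped by family) in the 23 libraries (columns, by group and replicate number), colored by log10 of TPM plus 0.1. Unc5b, Sema3e and Plxnb3 change from dark to bright between the lines in all 3 preparations, and Dcc, Unc5a, Unc5d, Slit1 and Sema5b are dark in every sorted and neurosphere-derived group.

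Guidance genes differed between the lines in all 3 preparations, with Unc5b, Slit2, Sema3a and Sema5a among those higher in CT2A and Sema3e and Plxnb3 among those lower. In bulk tumors all 43 members passed the minimum level and 12 were higher and 3 lower in CT2A (adjusted p below 0.05, edgeR quasi-likelihood test), beside 23.4% of all genes called. The bulk tumors of the lines also differed in number of cells implanted and in library depth, which cannot be told apart from line there. In sorted cells 38 members passed the minimum and 18 were higher and 10 lower, beside 50.8% of all genes. In neurosphere-derived tumors 38 passed and 17 were higher and 14 lower, beside 59.6% of all genes. Without GL261 bulk library 405 or 412 the bulk count of 15 members was 16 or 19, without GL261 sorted library 81 or CT2A sorted library 69 the sorted count of 28 was 33 or 26, and without CT2A library 59 the neurosphere-derived count of 31 was 34. The median absolute log2 fold change of the tested members was 0.69, 2.04 and 2.36 in the 3 comparisons, where that of all genes was 0.38, 0.66 and 0.70. Dcc, Unc5a, Unc5d, Slit1 and Sema5b were below the minimum in sorted cells and in neurosphere-derived tumors, and were tested between the lines in bulk tumors only. Of the 43 members 12 were called in the same direction in all 3 comparisons, namely Ntn4, Neo1, Unc5b, Slit2, Sema3a, Sema4b, Sema5a, Plxna1 and Plxnb1 higher in CT2A and Sema3d, Sema3e and Plxnb3 lower. No member was called higher in CT2A in 1 comparison and lower in another, and 9 were called in none of the 3. The share of all genes with these patterns was not counted, so the patterns are not given as particular to the members. By level, Plxnb2 led or came second in every group, with a mean of 79.6 TPM in GL261 bulk tumors and 104.6 TPM in CT2A bulk tumors. The runner-up in GL261 bulk tumors and sorted cells was Sema3e (means of 34.3 and 60.6 TPM), and Unc5b led in CT2A sorted cells at 141.3 TPM.

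**Figure D2:**
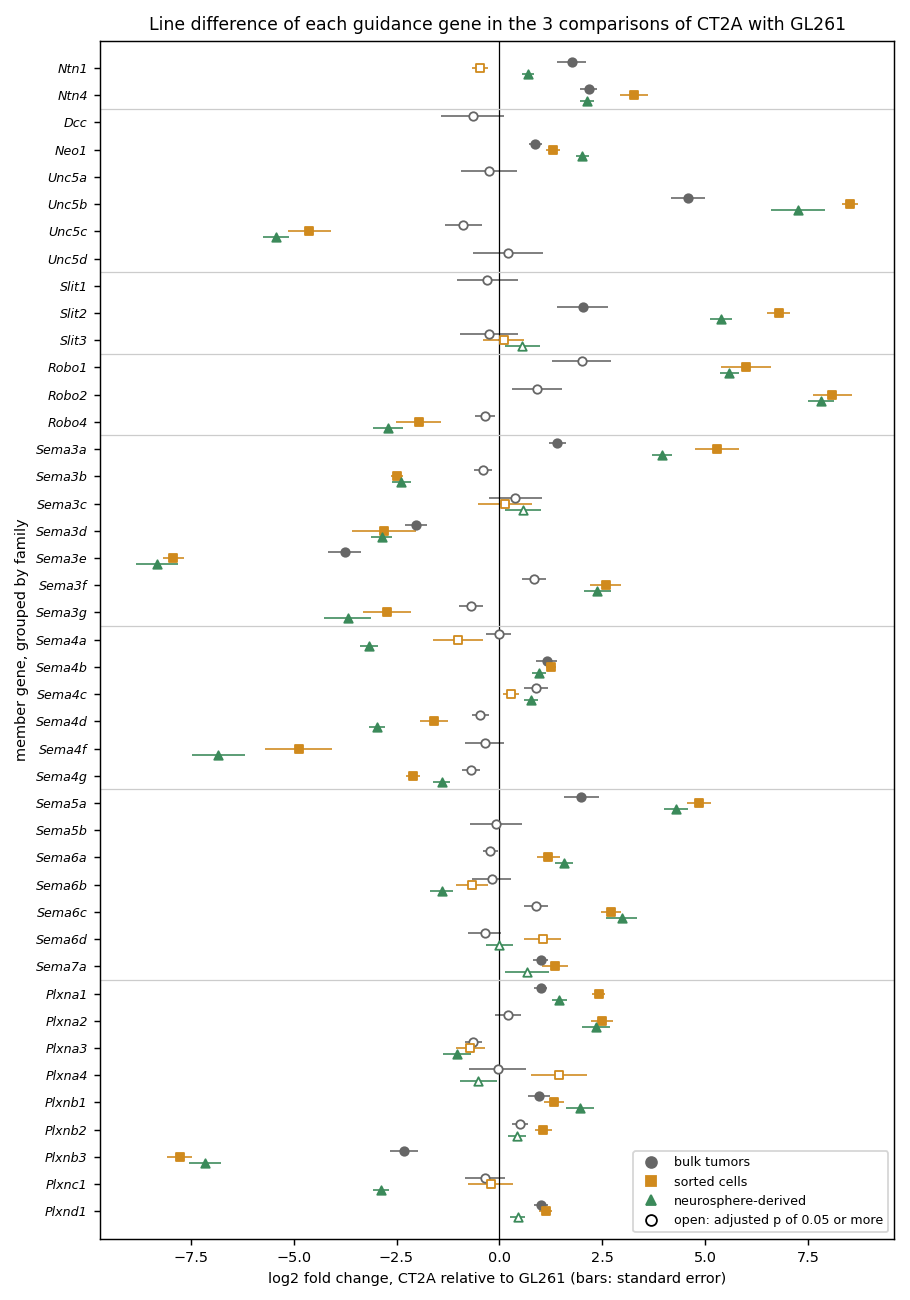
Log2 fold change of CT2A relative to GL261 (x axis; bars are standard errors) for each member in bulk tumors, sorted cells and neurosphere-derived tumors, filled where the adjusted p was below 0.05. Sorted and neurosphere-derived values lie close to each other for most members, and for most members the bulk value lies nearer 0.

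The sequences upstream of 6 members are shown because their smallest absolute log2 fold change over the 3 comparisons was the largest of all members. They were taken from RefSeq (GRCm38.p6), 5′ to 3′ on the strand of the gene, as up to 250 bases before the start site and ending before any exon of GENCODE, with matches to 4 short motifs on either strand in capitals, namely the TATA box (TATAAA), the GC box (GGGCGG), the CCAAT box (CCAAT) and an E-box (CACGTG), where overlapping matches run together. The windows are Unc5b at chr10:60831582-60831831 on the minus strand, Ntn4 at chr10:93640799-93641048, Slit2 at chr5:47982905-47983137, Sema3e at chr5:14025026-14025275, Plxnb3 at chrX:73756853-73757089 and Sema3d at chr5:12382916-12383165, all on the plus strand. The Ntn4 window lies in an intron of the longer GENCODE gene.
Unc5b: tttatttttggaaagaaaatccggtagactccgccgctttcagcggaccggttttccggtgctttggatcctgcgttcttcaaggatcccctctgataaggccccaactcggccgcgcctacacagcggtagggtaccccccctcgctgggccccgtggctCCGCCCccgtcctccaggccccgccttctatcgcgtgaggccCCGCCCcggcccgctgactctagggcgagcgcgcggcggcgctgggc
Ntn4: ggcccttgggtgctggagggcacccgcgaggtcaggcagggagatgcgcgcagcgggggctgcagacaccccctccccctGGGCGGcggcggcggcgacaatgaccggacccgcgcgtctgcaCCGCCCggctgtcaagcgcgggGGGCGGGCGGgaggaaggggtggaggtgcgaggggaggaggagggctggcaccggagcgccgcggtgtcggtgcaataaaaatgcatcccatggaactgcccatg
Slit2: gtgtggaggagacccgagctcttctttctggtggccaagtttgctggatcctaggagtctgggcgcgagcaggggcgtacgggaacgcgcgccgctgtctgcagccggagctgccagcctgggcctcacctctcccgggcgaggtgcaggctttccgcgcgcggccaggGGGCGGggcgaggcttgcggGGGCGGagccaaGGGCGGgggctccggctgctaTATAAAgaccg
Sema3e: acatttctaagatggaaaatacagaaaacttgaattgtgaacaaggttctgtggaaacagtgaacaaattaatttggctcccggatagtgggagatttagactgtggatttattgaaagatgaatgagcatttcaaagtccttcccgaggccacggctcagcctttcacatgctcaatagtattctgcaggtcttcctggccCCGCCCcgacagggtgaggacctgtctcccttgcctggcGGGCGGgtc
Plxnb3: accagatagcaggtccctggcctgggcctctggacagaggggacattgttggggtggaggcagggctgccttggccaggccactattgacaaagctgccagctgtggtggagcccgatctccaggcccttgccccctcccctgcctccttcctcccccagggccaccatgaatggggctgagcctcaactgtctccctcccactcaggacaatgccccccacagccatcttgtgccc
Sema3d: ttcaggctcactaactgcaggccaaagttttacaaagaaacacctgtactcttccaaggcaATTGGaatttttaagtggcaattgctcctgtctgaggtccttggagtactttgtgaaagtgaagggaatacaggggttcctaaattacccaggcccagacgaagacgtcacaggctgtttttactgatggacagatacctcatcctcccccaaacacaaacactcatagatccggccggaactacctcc

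The windows of the 3 genes that were higher in CT2A held 27, 26 and 23 CpG dinucleotides (Unc5b, Ntn4 and Slit2), and those of the 3 that were lower held 7, 1 and 4 (Sema3e, Plxnb3 and Sema3d). Over 32851 upstream windows of 250 bases the median was 6 CpG, with quartiles at 2 and 16, so the first 3 lay above the upper quartile. Of the other members higher in CT2A in all 3 comparisons, Neo1 held 45 CpG, Sema4b 17 (in 221 bases) and Sema3a 2, and Sema5a, Plxna1 and Plxnb1 had no such window. The Sema3a window (chr5:13396534-13396783) lies within the longer GENCODE gene and not before its start. GGGCGG was present 2 times for Unc5b, 4 for Ntn4, 3 for Slit2 and 2 for Sema3e, and in 32.7% of all windows. TATAAA was found for Slit2 alone of the 6 (12.4% of all windows), CCAAT for Sema3d alone (33.8%) and CACGTG for none of them (6.02%). These matches describe letters and show no binding, and no methylation or binding data were used.

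Both netrins were higher in CT2A bulk tumors. Ntn4 encodes netrin-4, which binds laminins of basement membranes. Ntn4 in bulk tumors measured 2.49, 4.88, 3.1 and 2.74 TPM in GL261 and 18.5, 17.3, 16.6 and 13.4 TPM in CT2A, values being given here and below in order of replicate number. Ntn4 in sorted cells measured 1.7, 1.87, 3.3 and 2.4 TPM in GL261 and 20.4, 22.7 and 19.3 TPM in CT2A. Ntn4 in neurosphere-derived tumors measured 3.03, 3.77 and 4.67 TPM in GL261 and 16.9, 16.6, 13.8, 19.2 and 18.5 TPM in CT2A. Every CT2A library lay above every GL261 library, and the log2 fold change of CT2A relative to GL261 (± SE) was 2.17 ± 0.2 in bulk tumors, 3.28 ± 0.34 in sorted cells and 2.14 ± 0.17 in neurosphere-derived tumors. Ntn1, the founding netrin that attracts or repels axons according to the receptor, did not keep one pattern. Ntn1 in bulk tumors measured 2.7, 8.92, 2.6 and 3.28 TPM in GL261 and 14.7, 14.3, 15.4 and 12.9 TPM in CT2A, with GL261 library 412 well above the other GL261 libraries but below all CT2A libraries. Ntn1 in sorted cells measured 15.7, 22.2, 18.8 and 32.3 TPM in GL261 and 17.8, 15.6 and 17.8 TPM in CT2A, and the groups overlapped. Ntn1 in neurosphere-derived tumors measured 9.87, 14 and 16.8 TPM in GL261 and 15.9, 24.5, 19.4, 26.2 and 22.2 TPM in CT2A, and the groups overlapped at one end. Its log2 fold change was 1.76 ± 0.35 in bulk tumors and 0.69 ± 0.15 in neurosphere-derived tumors, both called, and -0.47 ± 0.19 in sorted cells, which was not. The neurosphere-derived call of Ntn1 was lost when all 6 groups were fitted together (adjusted p = 0.0502).

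Among netrin receptors the lines held different UNC5 genes. UNC5 receptors convert the netrin response to repulsion. Unc5b in bulk tumors measured 2.03, 8.1, 3.51 and 3.66 TPM in GL261 and 120.3, 132.2, 88.3 and 73.6 TPM in CT2A. Unc5b in sorted cells measured 0.265, 0.332, 0.518 and 0.511 TPM in GL261 and 132.1, 128.8 and 163.1 TPM in CT2A. Unc5b in neurosphere-derived tumors measured 0.44, 0.617 and 0.914 TPM in GL261 and 110.0, 163, 27.1, 79 and 120.4 TPM in CT2A. CT2A library 59 was the lowest of its group and still stood far above all GL261 libraries, and the log2 fold change was 4.58 ± 0.42 in bulk tumors, 8.52 ± 0.2 in sorted cells and 7.26 ± 0.66 in neurosphere-derived tumors, the largest positive difference of any member in bulk tumors and sorted cells. Unc5c ran the other way, at 3.1 to 9.12 TPM in GL261 and 0.0967 to 0.447 TPM in CT2A sorted cells (log2 fold change -4.62 ± 0.52) and 3.28 to 5.37 against 0.0786 to 0.13 TPM in neurosphere-derived tumors (-5.43 ± 0.31), both called. In bulk tumors Unc5c overlapped between the lines and was not called (-0.88 ± 0.45). Neo1 encodes neogenin, a receptor for netrins and repulsive guidance molecules. Neo1 in bulk tumors measured 15.1, 28.1, 26.8 and 19.9 TPM in GL261 and 53.9, 51.4, 40.9 and 39.6 TPM in CT2A. Neo1 in sorted cells measured 22.7, 19.4, 18.2 and 19 TPM in GL261 and 58.4, 60.2 and 69.3 TPM in CT2A. Neo1 in neurosphere-derived tumors measured 9.85, 14.9 and 17.4 TPM in GL261 and 51.9, 70.2, 62.8, 68.6 and 55.5 TPM in CT2A. The lines did not overlap, and the log2 fold change of Neo1 was 0.87 ± 0.16 in bulk tumors, 1.31 ± 0.17 in sorted cells and 2.01 ± 0.16 in neurosphere-derived tumors. Dcc, the attractive netrin-1 receptor, reached at most 0.443 TPM in any sorted or neurosphere-derived library, which left Neo1 and Unc5b as the netrin receptors with a mean above 1 TPM in sorted CT2A cells, and Neo1 and Unc5c in sorted GL261 cells. In bulk tumors Dcc, Unc5a and Unc5d were not called, and each was highest in GL261 library 412 (4.22, 20.2 and 5.85 TPM), the library with the highest neuronal marker sum. Unc5a stood at no more than 1.18 TPM and Unc5d at no more than 0.195 TPM after sorting.

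**Figure D3:**
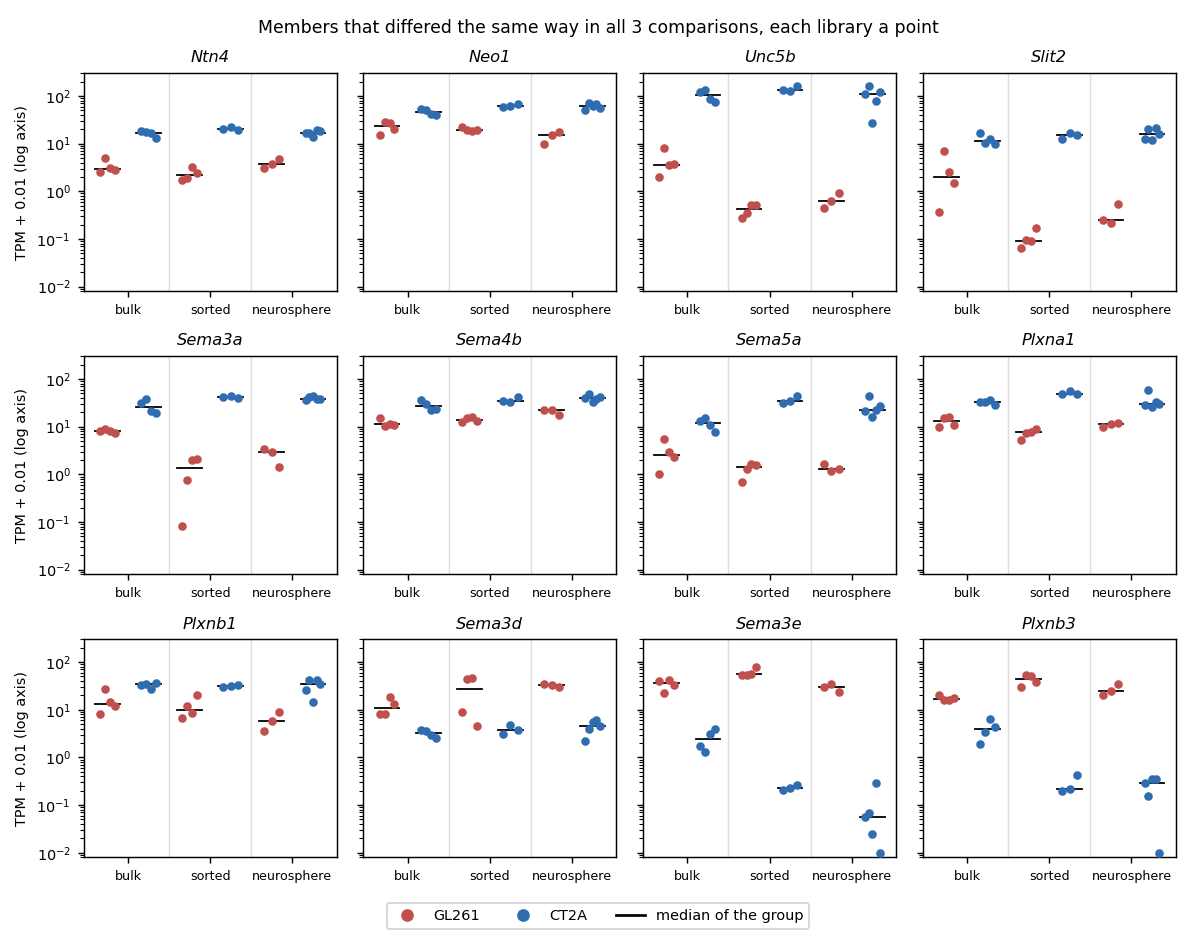
Level of the 12 members called in the same direction in all 3 line comparisons, as TPM plus 0.01 on a log axis, with each library a point (GL261 red, CT2A blue) and the group median a line. Points of the lines are apart in all panels except for Plxnb1 in bulk tumors and Sema3d in sorted cells.

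Slit2 and its receptors Robo1 and Robo2 were all higher in CT2A once tumor cells were sorted. Slit2 is a secreted ligand that repels Robo-bearing axons and migrating cells. Slit2 in bulk tumors measured 0.365, 7, 2.56 and 1.46 TPM in GL261 and 16.9, 10.1, 12.6 and 9.61 TPM in CT2A. Slit2 in sorted cells measured 0.0559, 0.0833, 0.0802 and 0.163 TPM in GL261 and 12.6, 16.8 and 15.3 TPM in CT2A. Slit2 in neurosphere-derived tumors measured 0.242, 0.205 and 0.541 TPM in GL261 and 12.2, 20.4, 11.7, 20.9 and 16.3 TPM in CT2A. All CT2A libraries exceeded all GL261 libraries, with a log2 fold change of 2.03 ± 0.62 in bulk tumors, 6.79 ± 0.28 in sorted cells and 5.38 ± 0.27 in neurosphere-derived tumors, and the GL261 sorted libraries rested on 4, 4, 4 and 11 estimated reads. The bulk call of Slit2 was lost when GL261 library 414 or 417 or any 1 CT2A library was left out, with RSEM counts, with DESeq2 size factors, with a length offset or with no minimum count, at a log2 fold change between 1.68 and 2.80 over all 15 alternatives. Slit1 and Slit3 were not called in any line comparison that tested them and were highest in GL261 bulk library 412, at 13.2 and 7.19 TPM. After sorting Slit1 reached at most 0.553 TPM and Slit3 at most 1.05 TPM, so Slit2 was the Slit found above 2 TPM in sorted libraries, and it was so in CT2A alone.

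Robo1 and Robo2 are the main Slit receptors of neurons, and Robo4 is known from endothelium. Robo2 in bulk tumors measured 1.68, 21.5, 11.5 and 9.6 TPM in GL261 and 20.5, 22.5, 30.6 and 26.3 TPM in CT2A. Robo2 in sorted cells measured 0, 0.163, 0.103 and 0.025 TPM in GL261 and 28.9, 36.6 and 39.8 TPM in CT2A. Robo2 in neurosphere-derived tumors measured 0.335, 0.429 and 0.318 TPM in GL261 and 27.4, 40.2, 22, 35.5 and 39.5 TPM in CT2A. The GL261 values of Robo2 rested on 0 to 6 estimated reads per library in sorted cells and 1 to 4 in neurosphere-derived tumors. Robo2 was called after sorting (8.09 ± 0.47 in sorted cells and 7.81 ± 0.32 in neurosphere-derived tumors). The second value lay between 6.42 and 8.18 over its alternatives, and so few reads limit how well its size is measured. In bulk tumors Robo2 was not called (0.91 ± 0.61), and GL261 libraries overlapped CT2A. Robo1 behaved alike, at 0.11 to 1.4 TPM in GL261 and 33.9 to 55.6 TPM in CT2A sorted cells (6.0 ± 0.61) and 0.769 to 0.893 against 30.9 to 58.4 TPM in neurosphere-derived tumors (5.59 ± 0.24), both called. In bulk tumors Robo1 stood at 0.549, 13.8, 3.34 and 2.58 TPM in GL261 and 19.8, 23.6, 15.2 and 15.3 TPM in CT2A, which did not overlap but were not called (2.0 ± 0.72, adjusted p = 0.0795). Robo4 was lower in CT2A sorted cells (-1.96 ± 0.55) and neurosphere-derived tumors (-2.71 ± 0.37). The sorted call was lost without CT2A library 69 or 70, where Robo4 fell by 1.51 to 2.33 on the log2 scale over its alternatives. Of 10 endothelial markers 6 were lower in CT2A sorted cells and 8 in CT2A neurosphere-derived tumors, their sum being 45 to 243.8 TPM in GL261 and 37.5 to 71.4 TPM in CT2A sorted cells, and their part in the Robo4 difference was not tested. In neurosphere-derived tumors 13 of 13 macrophage, 5 of 7 oligodendrocyte, 5 of 6 astrocyte and 3 of 3 pericyte markers tested were lower in CT2A too. Of 6 neuronal markers 3 were lower and 1 higher, and 59.6% of all genes were called in either direction. Lower marker levels there were thus not particular to 1 cell type.

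Class 3 semaphorins were split between the lines, with Sema3a and Sema3f on the CT2A side and Sema3b, Sema3d, Sema3e and Sema3g on the GL261 side. SEMA3E signals through plexin D1 without a neuropilin and is best known for restraining vessel growth. Sema3e in bulk tumors measured 40.8, 22.5, 41.1 and 33 TPM in GL261 and 1.72, 1.31, 3.03 and 3.88 TPM in CT2A. Sema3e in sorted cells measured 54.5, 52.8, 55.3 and 79.7 TPM in GL261 and 0.192, 0.22 and 0.249 TPM in CT2A. Sema3e in neurosphere-derived tumors measured 30.7, 34.3 and 23 TPM in GL261 and 0.0471, 0.0589, 0.0148, 0.274 and 0 TPM in CT2A. Sorted CT2A values rested on 7.01, 8.39 and 10 estimated reads, and neurosphere-derived CT2A values on 0 to 12.7 per library. The log2 fold change was -3.76 ± 0.4 in bulk tumors, -7.92 ± 0.26 in sorted cells and -8.31 ± 0.51 in neurosphere-derived tumors. Sema3d, a cue for neural crest and endothelial cells, was lower in CT2A but uneven within GL261. Sema3d in bulk tumors measured 7.99, 7.97, 18.3 and 13.3 TPM in GL261 and 3.69, 3.49, 2.93 and 2.54 TPM in CT2A. Sema3d in sorted cells measured 9.05, 44.1, 47.2 and 4.57 TPM in GL261 and 3.14, 4.7 and 3.66 TPM in CT2A. Sema3d in neurosphere-derived tumors measured 35.4, 33.7 and 29.4 TPM in GL261 and 2.24, 4.02, 5.41, 6.03 and 4.6 TPM in CT2A. GL261 sorted libraries 81 and 84 lay near the CT2A range and 82 and 83 far above it, and the log2 fold change was -2.03 ± 0.27 in bulk tumors, -2.8 ± 0.78 in sorted cells and -2.86 ± 0.25 in neurosphere-derived tumors. The sorted call of Sema3d was lost without CT2A library 69 or 71, its log2 fold change lying between -3.16 and -2.38 over its alternatives.

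Sema3a, the classical collapsing factor of growth cones, went the opposite way. Sema3a in bulk tumors measured 8.24, 8.9, 8.04 and 7.22 TPM in GL261 and 30.9, 37.3, 21.6 and 18.9 TPM in CT2A. Sema3a in sorted cells measured 0.0714, 0.766, 1.97 and 2.05 TPM in GL261 and 42.9, 43.9 and 39.6 TPM in CT2A. Sema3a in neurosphere-derived tumors measured 3.46, 2.96 and 1.44 TPM in GL261 and 36.2, 42.9, 43.5, 37.9 and 38.5 TPM in CT2A. No library of either line overlapped the other, and the log2 fold change was 1.41 ± 0.2 in bulk tumors, 5.28 ± 0.53 in sorted cells and 3.95 ± 0.25 in neurosphere-derived tumors. Sema3b is a secreted semaphorin studied as a tumor suppressor in lung cancer. Sema3b in bulk tumors measured 6.19, 6.53, 7.26 and 11.1 TPM in GL261 and 4.93, 5.4, 5.72 and 7.74 TPM in CT2A. Sema3b in sorted cells measured 18.9, 25.4, 23.8 and 26.4 TPM in GL261 and 3.68, 5.1 and 3.64 TPM in CT2A. Sema3b in neurosphere-derived tumors measured 17, 19.1 and 20.9 TPM in GL261 and 3.05, 5.68, 1.75, 4.33 and 3.41 TPM in CT2A. It overlapped between the lines in bulk tumors (-0.4 ± 0.22, not called) and was lower in CT2A after sorting (-2.49 ± 0.15 and -2.39 ± 0.23). Its neighbour Sema3f, at 1.16 to 3.63 TPM in GL261 and 12.5 to 16.8 TPM in CT2A sorted cells, was higher in CT2A (2.58 ± 0.38 in sorted cells and 2.38 ± 0.32 in neurosphere-derived tumors, with 0.84 ± 0.3 in bulk tumors not called). Sema3g, which vessels express, was lower in CT2A after sorting (-2.74 ± 0.58 and -3.68 ± 0.57), as were the endothelial markers given with Robo4, and their part was not tested. Sema3c was not called in any line comparison and lay between 0.0773 and 7.19 TPM over all 23 libraries.

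Class 4 semaphorins are membrane proteins that several immune cells carry, and 4 of 6 were lower in neurosphere-derived CT2A tumors. Sema4b in bulk tumors measured 15.1, 10.1, 11.6 and 10.9 TPM in GL261 and 36.5, 30.3, 22.7 and 23.3 TPM in CT2A. Sema4b in sorted cells measured 12.7, 15.1, 15.8 and 13.1 TPM in GL261 and 33.8, 33.7 and 41 TPM in CT2A. Sema4b in neurosphere-derived tumors measured 22.8, 22.3 and 17.2 TPM in GL261 and 39.2, 48.1, 32.3, 38.8 and 42.2 TPM in CT2A. Sema4b was the class 4 member that was higher in CT2A throughout, by a log2 fold change of 1.15 ± 0.25 in bulk tumors, 1.25 ± 0.13 in sorted cells and 0.96 ± 0.16 in neurosphere-derived tumors. Sema4c, a ligand of plexin B2, ranged from 13.6 to 57.4 TPM over all 23 libraries and was called in neurosphere-derived tumors (0.76 ± 0.17) but not in bulk tumors (0.89 ± 0.3) or sorted cells (0.28 ± 0.19). Sema4d is a ligand of plexin B1 that T cells and oligodendrocytes express. Sema4d in bulk tumors measured 22.3, 43.3, 33.6 and 31.4 TPM in GL261 and 15.6, 22.3, 32.7 and 29.3 TPM in CT2A. Sema4d in sorted cells measured 25.5, 22.2, 22.1 and 17.7 TPM in GL261 and 5.26, 9.04 and 12.4 TPM in CT2A. Sema4d in neurosphere-derived tumors measured 43.4, 41.5 and 39.7 TPM in GL261 and 5.44, 4.35, 4.37, 9.86 and 4.46 TPM in CT2A. The lines overlapped in bulk tumors and were apart after sorting, where the log2 fold change was -1.59 ± 0.33 in sorted cells and -2.97 ± 0.2 in neurosphere-derived tumors. Of 7 oligodendrocyte markers tested 4 and 5 were lower in CT2A in the same comparisons, with sums of 317.9 to 422.6 TPM in GL261 and 16.7 to 241.5 TPM in CT2A neurosphere-derived tumors, and their part was not tested. Markers of other cell types were lower in the latter too, as given with Robo4.

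Sema4a is a costimulatory semaphorin of dendritic cells and other immune cells. Sema4a in bulk tumors measured 9.5, 38.2, 17 and 20.6 TPM in GL261 and 12.8, 14.1, 22.4 and 24.1 TPM in CT2A. Sema4a in sorted cells measured 1.64, 11.2, 11.7 and 7.85 TPM in GL261 and 2.75, 3.96 and 5.63 TPM in CT2A. Sema4a in neurosphere-derived tumors measured 26.1, 30.3 and 18.6 TPM in GL261 and 1.97, 2.71, 2.82, 5.14 and 5.45 TPM in CT2A. The lines overlapped in bulk tumors and sorted cells and were apart in neurosphere-derived tumors, where the difference was called (-3.16 ± 0.22), and there 13 of 13 macrophage markers were lower in CT2A too, their part not being tested. Sema4f and Sema4g were lower in CT2A after sorting and not called in bulk tumors. Sema4f stood at 0.787 to 3.77 TPM in GL261 and 0 to 0.284 TPM in CT2A sorted cells (-4.88 ± 0.82), with 1.72 to 4.31 and 0 to 0.0528 TPM in neurosphere-derived tumors, which was called too. The 5 CT2A neurosphere-derived libraries held 3 estimated reads of Sema4f in all and the 3 GL261 libraries 183, a ratio per library depth of 144.8 with an exact 95% interval of 48.8 to 708.7, which covers counting error only. Sema4g stood at 20.2 to 33.9 TPM in GL261 and 5.85 to 6.08 TPM in CT2A sorted cells (-2.11 ± 0.17), with -1.4 ± 0.21 in neurosphere-derived tumors.

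Of the class 5 to 7 semaphorins none was lower in CT2A in bulk tumors or sorted cells. Sema5a has thrombospondin repeats and binds plexin B3. Sema5a in bulk tumors measured 1.02, 5.61, 2.88 and 2.29 TPM in GL261 and 13.3, 15.5, 10.8 and 7.8 TPM in CT2A. Sema5a in sorted cells measured 0.687, 1.29, 1.66 and 1.55 TPM in GL261 and 30.7, 35 and 44.7 TPM in CT2A. Sema5a in neurosphere-derived tumors measured 1.62, 1.18 and 1.26 TPM in GL261 and 21.3, 43.4, 16, 22.7 and 27.1 TPM in CT2A. The lines did not overlap, and the log2 fold change was 1.99 ± 0.43 in bulk tumors, 4.85 ± 0.3 in sorted cells and 4.3 ± 0.29 in neurosphere-derived tumors. Its relative Sema5b reached 10.1 TPM in GL261 bulk library 412 and was not called there, and stood at no more than 0.767 TPM after sorting. Class 6 semaphorins are transmembrane ligands of A-type plexins. Sema6a and Sema6c were higher in CT2A sorted cells (1.19 ± 0.28 and 2.71 ± 0.25) and neurosphere-derived tumors (1.57 ± 0.23 and 2.97 ± 0.38), and neither was called in bulk tumors. Sema6a lay at 4.65 to 11.1 TPM in GL261 and 17.2 to 21.7 TPM in CT2A sorted cells, and Sema6c at 0.658 to 3.63 and 7.87 to 13.2 TPM. Sema6b was not called in bulk tumors (-0.19 ± 0.47) or sorted cells (-0.66 ± 0.39) and was lower in CT2A neurosphere-derived tumors (-1.4 ± 0.28), where it lay at 5.57 to 11.6 TPM in GL261 and 2.34 to 3.26 TPM in CT2A. Sema6d was called in no line comparison and lay at 0.587 to 1.54 TPM in GL261 and 1.22 to 3.44 TPM in CT2A sorted cells. Sema7a, a lipid-anchored semaphorin that binds plexin C1 and integrins, was higher in CT2A bulk tumors (1.0 ± 0.19, 19.5 to 47 TPM in GL261 and 55.8 to 84 TPM in CT2A, a call lost when all 6 groups were fitted together) and sorted cells (1.35 ± 0.31) but was not called in neurosphere-derived tumors (0.67 ± 0.54), where CT2A library 59 held 3.74 TPM and the other 4 CT2A libraries held 19.6 to 46.9 TPM. Library 59 also had the lowest level of 22 members and the highest macrophage marker sum of its group, whose part was not tested.

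Plexins B3 and A1 marked the lines in opposite directions. Plxnb3 encodes the receptor of SEMA5A. Plxnb3 in bulk tumors measured 20.7, 16, 16 and 17.3 TPM in GL261 and 1.86, 3.36, 6.32 and 4.36 TPM in CT2A. Plxnb3 in sorted cells measured 30.3, 53.9, 50.1 and 38.8 TPM in GL261 and 0.189, 0.21 and 0.413 TPM in CT2A. Plxnb3 in neurosphere-derived tumors measured 20.3, 25 and 35.5 TPM in GL261 and 0.287, 0.147, 0.348, 0.345 and 0 TPM in CT2A. GL261 lay above CT2A in every pair of libraries, and the log2 fold change was -2.31 ± 0.34 in bulk tumors, -7.77 ± 0.3 in sorted cells and -7.16 ± 0.39 in neurosphere-derived tumors. The CT2A values of Plxnb3 rested on 5 to 8 estimated reads per library in sorted cells and 0 to 14 in neurosphere-derived tumors. Plxna1 is a signaling partner of neuropilins for class 3 semaphorins and a receptor of class 6 semaphorins. Plxna1 in bulk tumors measured 10, 15, 16.3 and 10.9 TPM in GL261 and 33.6, 33.1, 36.8 and 28.6 TPM in CT2A. Plxna1 in sorted cells measured 5.25, 7.35, 7.75 and 8.93 TPM in GL261 and 48.7, 54.8 and 49.2 TPM in CT2A. Plxna1 in neurosphere-derived tumors measured 9.8, 11.2 and 11.7 TPM in GL261 and 29, 58.2, 26.4, 33.6 and 30 TPM in CT2A. The lines did not overlap, and the log2 fold change was 1.0 ± 0.15 in bulk tumors, 2.41 ± 0.16 in sorted cells and 1.46 ± 0.18 in neurosphere-derived tumors. Plxnb1 is the receptor of SEMA4D. Plxnb1 in bulk tumors measured 8.22, 27.7, 14.2 and 12.2 TPM in GL261 and 33.3, 35.4, 27.3 and 36.1 TPM in CT2A. Plxnb1 in sorted cells measured 6.62, 11.7, 8.43 and 20.2 TPM in GL261 and 30, 30.9 and 32.5 TPM in CT2A. Plxnb1 in neurosphere-derived tumors measured 3.59, 5.9 and 9.05 TPM in GL261 and 26, 42.2, 14.3, 42.2 and 34.4 TPM in CT2A. GL261 library 412 touched the CT2A range in bulk tumors, and the log2 fold change was 0.96 ± 0.26 in bulk tumors, 1.33 ± 0.25 in sorted cells and 1.96 ± 0.33 in neurosphere-derived tumors. Its bulk call was lost when GL261 library 414 or 417 or any 1 CT2A library was left out or no minimum count was set, with values between 0.79 and 1.27 over the alternatives.

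Plxna2 was higher in CT2A after sorting (2.49 ± 0.26 in sorted cells and 2.34 ± 0.34 in neurosphere-derived tumors) and was not called in bulk tumors (0.21 ± 0.32). Plxna3 was lower in CT2A neurosphere-derived tumors (-1.02 ± 0.34), a call that was lost without GL261 library 90 or 91, with a length offset or with no minimum count, with values from -1.18 to -0.78, and was not called in sorted cells (-0.71 ± 0.35) or bulk tumors (-0.63 ± 0.21). Plxna4, the plexin of many sensory and central neurons, was called in no line comparison and stayed at or below 0.549 TPM after sorting. Plxnb2, the most abundant plexin, lay at 33.3 to 80.6 TPM in GL261 and 111.8 to 148.5 TPM in CT2A sorted cells and was higher in CT2A there (1.07 ± 0.2), but was not called in bulk tumors (0.5 ± 0.2) or neurosphere-derived tumors (0.42 ± 0.22). Plxnd1, the receptor of SEMA3E that endothelium expresses, was higher in CT2A bulk tumors (1.01 ± 0.18, 19.6 to 36.5 TPM in GL261 and 66 to 80 TPM in CT2A) and sorted cells (1.12 ± 0.15), and not called in neurosphere-derived tumors (0.44 ± 0.18). Plxnc1 is a receptor of SEMA7A found on myeloid cells among others. Plxnc1 in bulk tumors measured 1.59, 13.2, 5.67 and 7.84 TPM in GL261 and 4.79, 2.82, 7.74 and 5.5 TPM in CT2A. Plxnc1 in sorted cells measured 2.9, 4.77, 4.53 and 4.39 TPM in GL261 and 1.08, 3.31 and 4.39 TPM in CT2A. Plxnc1 in neurosphere-derived tumors measured 7.2, 6.76 and 10.1 TPM in GL261 and 1.03, 0.915, 1.03, 0.888 and 0.636 TPM in CT2A. It was not called in bulk tumors (-0.35 ± 0.49) or sorted cells (-0.21 ± 0.55) and was lower in CT2A neurosphere-derived tumors (-2.88 ± 0.2), alongside 13 of 13 macrophage markers, whose part was not tested.

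Set beside each other as known ligands and receptors, some pairs were on the same side and others on opposite sides. Slit2 with Robo1 and Robo2, and Ntn4 with Neo1 and Unc5b, were higher in CT2A sorted cells. Sema5a was higher in CT2A where its receptor Plxnb3 was lower. Sema3e was lower in CT2A where its receptor Plxnd1 was higher in bulk tumors and sorted cells, and Sema4d was lower in CT2A sorted cells where its receptor Plxnb1 was higher. These pairings are background knowledge, and transcript levels show neither protein nor signaling.

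To ask whether the line difference itself depended on sorting, the difference in bulk tumors was tested against that in sorted cells. Of 43 members 18 were called, 7 positive and 11 negative, beside 13.5% of all genes. For 17 of the 18 the line difference was nearer 0 in bulk tumors, and the exception was Ntn1. The same count was not made over all genes. Their median absolute log2 fold change between the lines was also smaller in bulk tumors (0.38) than in sorted cells (0.66). Plxnb3, whose log2 fold change was -2.31 for bulk tumors and -7.77 after sorting, had an interaction of 5.37 ± 0.48 (adjusted p = 2.04e-05). Sema3e had an interaction of 4.08 ± 0.51 (adjusted p = 0.000192), Unc5b of -4.1 ± 0.52 (adjusted p = 0.000207) and Sema3b of 1.97 ± 0.27 (adjusted p = 0.000362). Robo2 had the widest interaction, -7.39 ± 1.03 (adjusted p = 0.000453), and Sema3a had -3.99 ± 0.57 (adjusted p = 0.000531). The other members called were Ntn1 (2.08 ± 0.46), Unc5c (3.61 ± 0.75), Sema4f (4.42 ± 1.0) and Sema4g (1.29 ± 0.3) on the positive side. On the negative side they were Slit2 (-4.96 ± 0.88), Robo1 (-4.19 ± 1.06), Sema3f (-1.9 ± 0.54), Sema5a (-3.03 ± 0.58), Sema6a (-1.52 ± 0.35), Sema6c (-1.99 ± 0.44), Plxna1 (-1.54 ± 0.23) and Plxna2 (-2.44 ± 0.47). On the low side, Robo2 in GL261 lay at 1.68 to 21.5 TPM in bulk tumors and 0 to 0.163 TPM in sorted cells, and Sema3e in CT2A at 1.31 to 3.88 and 0.192 to 0.249 TPM. Bulk libraries also held more neuronal marker signal, as given above, and its part was not tested. Subline, number of cells implanted, sorting, read length and sequencing run differ together between bulk and sorted libraries and cannot be told apart, and in bulk tumors fewer cells of a type and less RNA per cell cannot be told apart either. All genes had a median interaction of -0.12 with TMM scaling and 0 with DESeq2 size factors, with 919 positive and 1216 negative calls against 1062 and 911. No interaction of a called member turned sign under any alternative, and that of Sema6c lost its call with a length offset and that of Sema3f its call without GL261 bulk library 414, GL261 sorted library 82 or 84, CT2A bulk library 47 or 48 or any 1 CT2A sorted library.

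**Figure D4:**
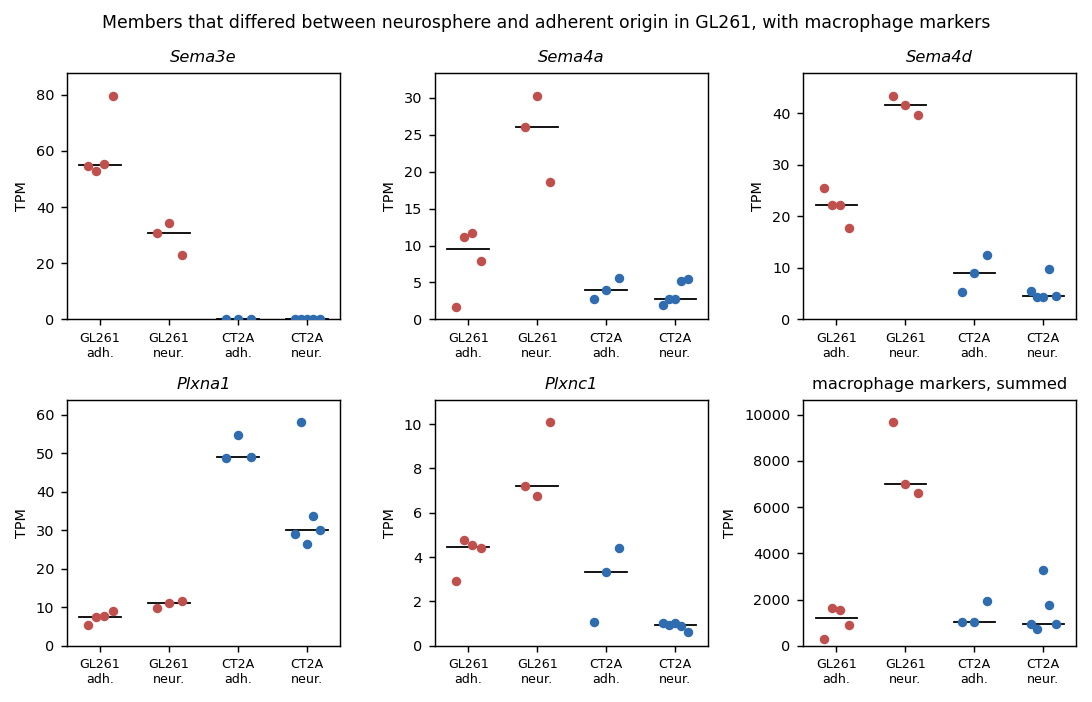
TPM of the 5 members called between neurosphere-derived and adherent-derived sorted GL261 cells, and the sum of 13 macrophage markers, in GL261 (red) and CT2A (blue), each library a point and the group median a line; all axes start at 0. Sema4a, Sema4d and Plxnc1 are highest in the 3 neurosphere-derived GL261 libraries, as are the macrophage markers, and Sema3e is lower there.

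Neurosphere culture before implantation was compared with adherent culture within each line, in sorted cells. In GL261 37 members passed the minimum, 4 were higher and 1 lower in neurosphere-derived tumors, beside 8.53% of all genes. Plxna1 was higher (0.83 ± 0.16, adjusted p = 0.0181), as were Sema4d (0.95 ± 0.19, adjusted p = 0.0211), Plxnc1 (1.56 ± 0.34, adjusted p = 0.0275) and Sema4a (2.22 ± 0.52, adjusted p = 0.0373). Sema3e was lower (-0.96 ± 0.22, adjusted p = 0.0321). For each of the 5 the 2 groups of GL261 libraries were apart in the values given above. Of the 37 members tested the groups were apart for 13, and the same count was not made over all genes. In the same comparison 12 of 13 macrophage markers were higher, and their part in the Sema4a, Sema4d and Plxnc1 differences was not tested. The count of members called depended on single libraries, being 0 without GL261 sorted library 84 or neurosphere-derived library 89 or 90, 1 without sorted library 83, 2 without neurosphere-derived library 91, 3 without sorted library 82 and 11 without sorted library 81. Of the 5 members named, Sema4d was the one still called without library 91. In CT2A none of 34 members tested was called by edgeR, beside 0.167% of all genes, and none by DESeq2, with 3 members at an unadjusted p under 0.05. The median absolute log2 fold change of members was 0.26 in CT2A and 0.53 in GL261, where that of all genes was 0.21 and 0.26.

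Whether the line difference depended on culture was tested as an interaction, neurosphere-derived minus adherent-derived. Of 38 members tested 1 was positive and 5 negative, beside 6.67% of all genes. Ntn1 was positive (1.11 ± 0.24, adjusted p = 0.0166). Plxnc1 (-2.72 ± 0.6, adjusted p = 0.0168), Plxna1 (-1.0 ± 0.24, adjusted p = 0.0223) and Sema4d (-1.44 ± 0.4, adjusted p = 0.0442) were negative, and so were Slit2 (-1.45 ± 0.4, adjusted p = 0.0449) and Sema4a (-2.19 ± 0.63, adjusted p = 0.0495). Plxna1 was still higher in CT2A, with a smaller line difference, and by the values given above its GL261 levels were higher and 4 of 5 CT2A levels lower after neurosphere culture, although the CT2A culture comparison did not call it. Under the 21 alternatives the call of Slit2 was lost in 16, among them DESeq2 size factors, no minimum count, a length offset and all 6 groups in 1 fit, those of Sema4a and Sema4d in 12 each, that of Plxna1 in 4, that of Plxnc1 in 2 and that of Ntn1 in 1. The count fell to 1 without CT2A sorted library 71 or GL261 neurosphere-derived library 89, to 2 without GL261 neurosphere-derived library 90 or CT2A neurosphere-derived library 57, and to 3 without CT2A neurosphere-derived library 61.

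**Figure D5:**
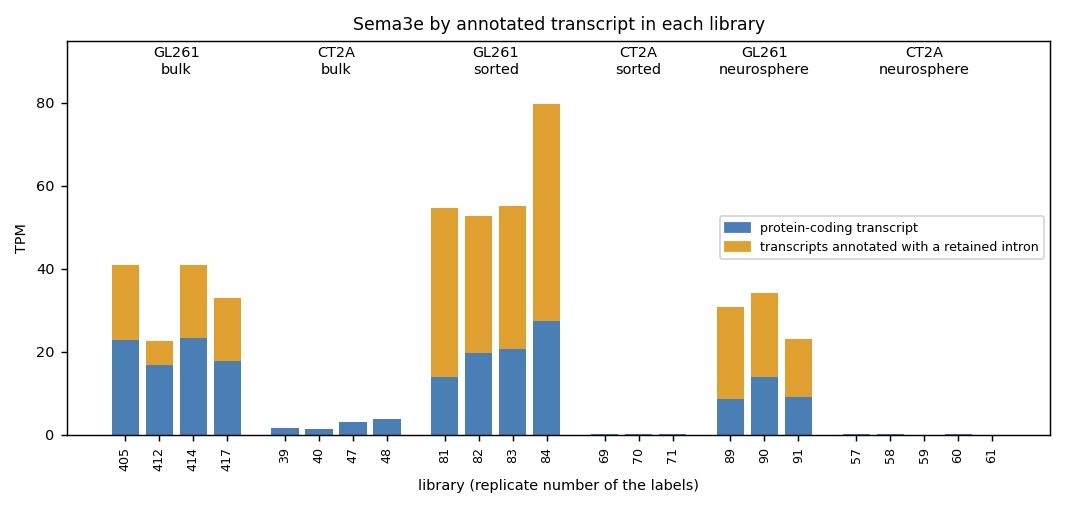
Stacked bars of Sema3e in each library, in TPM from 0, split into the protein-coding transcript (blue) and transcripts annotated with a retained intron (orange). The orange part is present in all 11 GL261 libraries and absent from all 12 CT2A libraries.

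The split of a gene between its annotated transcripts was not used in choosing members, and was tested as the share of the leading transcript between the lines. Of 69 tests over members and preparations none passed after adjustment (two-sided exact permutation tests, lowest adjusted p = 0.329), and 7 had an unadjusted p under 0.05. The smallest exact permutation p that 3 against 5 libraries can give is 0.0179. Over 69 tests even a complete split could not pass unless many tests reached such a value together. The lack of calls therefore does not show that the shares were alike. Sema3e had the clearest split, because its leading transcript (ENSMUST00000130116, 5206 bases, annotated with a retained intron) had no read in any CT2A library. That transcript measured 18, 5.6, 17.3 and 15.2 TPM in GL261 bulk tumors, 40.6, 33, 34.5 and 52 TPM in GL261 sorted cells and 21.9, 20.4 and 14 TPM in GL261 neurosphere-derived tumors. It made up 39.3% ± 9.75 (SD, n = 4) of Sema3e in GL261 bulk tumors, 66.2% ± 5.67 (SD, n = 4) in sorted cells and 64% ± 6.5 (SD, n = 3) in neurosphere-derived tumors. In CT2A bulk tumors the share was 0 in 4 of 4 libraries, on 68, 54, 123 and 160.0 estimated reads of the gene (exact permutation p = 0.0286, the smallest that 4 against 4 libraries can give; adjusted p = 0.329). The protein-coding transcript, ENSMUST00000073957, measured 13.9, 19.6, 20.7 and 27.5 TPM in GL261 sorted cells and 0.192, 0.22 and 0.249 TPM in CT2A sorted cells, so it was lower in CT2A as well. The retained part of the first transcript lies at chr5:14225696-14226415 (GRCm38), 720 bases between exons of the coding transcript. Another case was a protein-coding Sema4d transcript, ENSMUST00000021900 (4482 bases), which had no read in 3 of 3 CT2A sorted libraries and 3.47 to 12.8 TPM in GL261 sorted cells, though it was read in CT2A neurosphere-derived tumors. Salmon divides reads between overlapping transcripts by likelihood, so these are estimates, and CT2A sorted libraries held too few Sema3e reads for a share to be tested.

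Plxnb1 and Neo1 also gave low unadjusted values, as did Plxna1 and Plxna2 in bulk tumors and Sema4g in neurosphere-derived tumors. Leading shares, CT2A first, were 79.5% and 96.0% for Plxna1, 91.9% and 81.6% for Plxna2, and 62.0% and 20.9% for Sema4g. The leading Plxnb1 transcript made up 64.3% ± 6.15 (SD, n = 5) of the gene in CT2A and 86.8% ± 0.773 (SD, n = 3) in GL261 neurosphere-derived tumors (exact permutation p = 0.0179, adjusted p = 0.329). The leading Neo1 transcript made up 49.5% ± 6.38 (SD, n = 4) of the gene in CT2A bulk tumors, against 33.5% ± 6 (SD, n = 4) in those of GL261 (exact permutation p = 0.0286, adjusted p = 0.329), with 67.5% and 53.2% in neurosphere-derived tumors. In the other preparations the shares overlapped, at 60.6% and 52.9% (exact permutation p = 0.314) for Neo1 in sorted cells, and at 68.4% and 73.2% (exact permutation p = 0.4) in bulk tumors and 72.8% and 76.2% (exact permutation p = 0.486) in sorted cells for Plxnb1, where CT2A is given first. None of these splits passed the adjusted threshold, and with these numbers of libraries a single split could not reach it.

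Positions in the genome (GRCm38, GENCODE) placed some members with opposite line differences next to each other. Sema3d (chr5:12383385-12588948), Sema3a (chr5:13125414-13602565) and Sema3e (chr5:14025276-14256689) follow each other on chromosome 5 with gaps of 536 and 423 kb, and the middle gene was higher in CT2A where the outer genes were lower. Sema3b (chr9:107597674-107609229) and Sema3f (chr9:107681500-107710475) lie 72 kb apart on chromosome 9, with Sema3b lower and Sema3f higher in CT2A sorted cells. Robo1 (chr16:72308306-73046095) and Robo2 (chr16:73891839-74411825) lie 846 kb apart on chromosome 16 and were both higher in CT2A after sorting. On the X chromosome Plxnb3 (chrX:73757090-73772514) lies 557 kb from Plxna3 (chrX:74329066-74344689), and the log2 fold change in sorted cells was -7.77 ± 0.3 for Plxnb3 and -0.71 ± 0.35 for Plxna3, of which the second was not called. The other members called in all 3 comparisons were Unc5b (chr10:60762593-60831581), Ntn4 (chr10:93640681-93747207), Slit2 (chr5:47983138-48307733), Neo1 (chr9:58874687-59036441), Sema4b (chr7:80186841-80226527), Sema5a (chr15:32244810-32696341), Plxna1 (chr6:89316314-89362620) and Plxnb1 (chr9:109095389-109119917).

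Other genes of the pathways were read from 4 lists, beside the 23.4%, 50.8% and 59.6% of all genes called in bulk tumors, sorted cells and neurosphere-derived tumors. The share called in these 3 comparisons was 22.2%, 70.6% and 76.5% for coreceptors, 26.7%, 67.4% and 55.8% for effectors, which lay near or below that of all genes in bulk and neurosphere-derived tumors, and 36.4%, 70.6% and 87.5% for Eph receptors and ephrins. Among 19 coreceptors and alternative ligands 1 of 18 tested were higher and 3 lower in CT2A bulk tumors, 6 and 6 of 17 in sorted cells, and 7 and 6 of 17 in neurosphere-derived tumors. Gpc1, a heparan sulfate proteoglycan that binds Slits, was higher (2.05 ± 0.19, 4.05 ± 0.16 and 4.85 ± 0.26 in the 3 comparisons), and Flrt2, a ligand of UNC5 receptors, was higher after sorting (5.53 ± 0.51 and 4.05 ± 0.48). L1cam, an adhesion molecule that joins neuropilin-1 in the semaphorin receptor, was lower (-2.57 ± 0.38, -6.61 ± 0.35 and -7.13 ± 0.23). Draxin, a secreted netrin antagonist that binds DCC, was lower in bulk tumors (-2.45 ± 0.32) and sorted cells (-2.29 ± 0.28), and Nrcam, an adhesion molecule of the L1 family, was lower after sorting (-3.28 ± 0.35 and -4.64 ± 0.31). The neuropilins differed by a log2 fold change of 1.45 ± 0.26 (Nrp1) and 1.5 ± 0.28 (Nrp2) in sorted cells, both higher in CT2A. Among 45 cytoplasmic effectors 8 of 45 tested were higher and 4 lower in CT2A bulk tumors, 16 and 13 of 43 in sorted cells, and 15 and 9 of 43 in neurosphere-derived tumors. Mical2, an actin oxidase, was higher in sorted cells (5.4 ± 0.24), and the collapsin response mediator Dpysl3 after sorting (3.03 ± 0.27 and 3.55 ± 0.26), while its relative Dpysl2 was lower (-0.86 ± 0.16 and -0.91 ± 0.13). Among 22 Eph receptors and ephrins, a further guidance family, 8 of 22 tested were higher and 0 lower in CT2A bulk tumors, 12 and 0 of 17 in sorted cells, and 14 and 0 of 16 in neurosphere-derived tumors. Efna4 was higher in all 3 (4.22 ± 0.36, 3.81 ± 0.14 and 4.24 ± 0.21), and Ephb6, a kinase-inactive Eph receptor, was higher after sorting (7.99 ± 0.26 and 9.47 ± 0.44). Among 12 further netrin, Slit and semaphorin family genes 1 of 12 tested were higher and 1 lower in CT2A bulk tumors, 1 and 1 of 4 in sorted cells, and 1 and 1 of 4 in neurosphere-derived tumors, with Ntn3 (1.3 ± 0.2 in sorted cells) the higher and Slitrk6 (-4.76 ± 0.32) the lower gene in each. The share called in this list was 16.7%, 50% and 50%, near or below that of all genes in each comparison.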

How the data were processed

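RNA of brain tumors or of cells sorted from them was sequenced as paired reads of 150 bases (bulk tumors) or 37 bases (sorted cells and neurosphere-derived tumors), and the kit is stated differently in the sample labels and in the design text. Per the labels and the study's methods, the authors aligned reads to the mm10 (GRCm38) transcriptome with STAR 2.7.7a and RSEM 1.3.3, which gave deposited expected counts per gene, and ran Salmon, which gave deposited estimated counts and TPM per transcript. Bias, length and mapping differences between 37-base and 150-base reads can move either.

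Salmon estimated counts and TPM were summed per gene for 35576 genes, and the counts were rounded. Transcripts took their gene from the deposited RSEM results (116281 transcripts) or, failing that, from GENCODE release M21 (85), and 180 without a gene were left out. A gene was tested where its normalized count (TMM scaling) averaged more than 10 across a fit's libraries, with edgeR 4.0.16 (quasi-likelihood, robust) in R 4.3.3, with only the groups compared in the fit, Benjamini-Hochberg adjustment over all genes tested and a threshold of 0.05. Log2 fold changes come from these counts and need not equal ratios of TPM, and their SE is the absolute log2 fold change divided by the square root of F. Interactions were contrasts of line differences over 4 groups. Shares of the leading transcript (highest summed TPM, at least 50 estimated reads of the gene in every library) were compared by two-sided exact permutation tests. The fitting code was tested on simulated counts.

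The 43 members, the 4 pathway lists and the 6 marker lists were chosen with earlier results of these data known. Every member was named, and values per library were given for members called in the same direction in all 3 line comparisons and for the 6 with the smallest p in each other comparison or interaction, while from each pathway list at most 4 genes per direction with the smallest p were named, and Robo1 in bulk tumors, the neuropilins and single libraries were added after their values were seen. Alternatives were RSEM expected counts (bulk tumors, sorted cells and their interaction), DESeq2 1.42.0 and its size factors, other minimum counts, a length offset, a minimum absolute log2 fold change of 1, all 6 groups in 1 fit and leaving out each library. The study describes the libraries of a group as separate mice, so p-values measure the spread between mice bearing 1 line.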

Additional observations from a re-analysis of the deposited data

Results flagged for a closer look

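Over 172 groups of member levels with 4 or 5 libraries, 8 held a library far from the others by Dixon's criterion, which chance meets in about 1 in 20 groups. Ntn1 was 8.92 TPM in GL261 bulk library 412, where the other libraries of that group lay between 2.6 and 3.28 TPM. GL261 sorted library 84 stood high for Unc5c (9.12 TPM), Slit1 (0.553 TPM) and Sema3e (79.7 TPM), and was also 1 of the 2 libraries with low Sema3d. Plxna3 was 26.0 TPM in CT2A bulk library 39. In CT2A neurosphere-derived tumors Sema3e was 0.274 TPM and Sema4d 9.86 TPM in library 60, which had the highest oligodendrocyte marker sum of its group, and Plxna1 was 58.2 TPM in library 58.

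The size of the line difference was not the same in bulk tumors as after sorting for 18 of 43 members (interaction on the log2 scale, edgeR, adjusted p below 0.05), beside 13.5% of all genes, and sorting, subline and sequencing cannot be told apart. It was positive for Plxnb3 (5.37), Sema4f (4.42), Sema3e (4.08), Unc5c (3.61), Ntn1 (2.08), Sema3b (1.97) and Sema4g (1.29). It was negative for Robo2 (-7.39), Slit2 (-4.96), Robo1 (-4.19), Unc5b (-4.1), Sema3a (-3.99), Sema5a (-3.03), Plxna2 (-2.44), Sema6c (-1.99), Sema3f (-1.9), Plxna1 (-1.54) and Sema6a (-1.52). Ntn1 was the member whose line difference was larger in bulk tumors, and its GL261 levels were lower in bulk tumors than in sorted cells in every pair of libraries, where its CT2A levels were 12.9 to 15.4 TPM in bulk tumors and 15.6 to 17.8 TPM in sorted cells.

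Between neurosphere-derived and adherent-derived cells the line difference shifted toward CT2A for Ntn1 (1.11), from -0.47 to 0.69, and shifted toward GL261 for Plxnc1 (-2.72), Sema4a (-2.19), Slit2 (-1.45), Sema4d (-1.44) and Plxna1 (-1.0). For Slit2 the GL261 levels rested on few reads in both cultures.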

How the results depend on the processing

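Members called in the line comparisons ranged from 13 to 19 in bulk tumors, 26 to 33 in sorted cells and 30 to 34 in neurosphere-derived tumors when 1 library was left out, and from 12 to 20, 28 to 29 and 28 to 32 under the other alternatives. The GL261 culture comparison ranged from 0 to 11 when 1 library was left out, with 2 members at a minimum absolute log2 fold change of 1 and 8 by DESeq2. In CT2A the count was 0 under every alternative run, though DESeq2 called 302 genes over the whole table where edgeR called 22. The culture interaction ranged from 1 to 6 when 1 library was left out and was 3 with no minimum count, and the interaction of bulk tumors with sorted cells ranged from 17 to 20 when 1 library was left out and from 17 to 21 otherwise. Of 103 calls of members 83 kept their call in every alternative, the minimum absolute log2 fold change of 1 not being counted. Calls with a smaller log2 fold change, such as that of Neo1 in bulk tumors (0.87), are lost under that minimum by definition. None of 1638 alternative values changed direction, though these fits reuse the same libraries. With DESeq2 size factors 53.8% of the calls over all genes in that interaction were positive, against 43% with TMM. Leading transcript shares gave no call in any alternative, where groups this small could not give a call for a single split. Where one line held few reads, as after sorting for Sema3e and Plxnb3 in CT2A and Slit2 or Robo2 in GL261, depth limits how well the size of a fold change is measured. No paired analysis was possible because the replicate numbers are unique to each library and no label pairs libraries across groups.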

Other observations

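Some partners of the guidance genes were called with neurosphere culture in GL261, in values looked up after the lists had been fitted and beside 8.53% of all genes called. Of 17 coreceptors and alternative ligands tested, 3 were higher and 1 lower in neurosphere-derived GL261 tumors. Nrp1, the neuropilin that holds class 3 semaphorins, rose by a log2 fold change of 1.34 ± 0.26 (adjusted p = 0.019), Sdc3, a heparan sulfate proteoglycan, by 0.92 ± 0.18 (adjusted p = 0.0186) and Cd72, the receptor of SEMA4D on B cells and other immune cells, by 3.05 ± 0.69 (adjusted p = 0.0324). Met, a receptor kinase that associates with B-type plexins, was lower (-0.92 ± 0.23, adjusted p = 0.0485). Of 44 cytoplasmic effectors 4 were higher and 1 lower, a share of 11.4% that lies near that of all genes, and Evl, an actin regulator of the Ena/VASP family, had the smallest p (1.18 ± 0.16, adjusted p = 0.00698). Over all genes this comparison called 307 without GL261 neurosphere-derived library 89 and 2435 without GL261 sorted library 81, the lowest and highest counts when 1 library was left out. In CT2A none of the 17 coreceptors or 43 effectors tested was called by edgeR, with 5 and 3 at an unadjusted p under 0.05. In the culture interaction, where 6.67% of all genes were called, 1 coreceptor was positive and 3 were negative of 17 tested. Of 43 effectors tested 1 was positive and 1 negative, a share of 4.65% that lies below that of all genes. The negative genes were Cd72 (-3.8 ± 0.73), Nrp1 (-1.79 ± 0.34), Sdc3 (-1.17 ± 0.24) and Evl (-1.0 ± 0.19). The summed macrophage markers, given in the report, were higher in the same GL261 libraries, and their part was not tested.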
